A study of Mus musculus with 9 samples.

Results

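The 9 genes described here take part in the storage of retinoids (vitamin A and its derivatives) and in signalling by retinoic acid: Lrat, Rdh10, Dhrs3, Aldh1a2, Crabp1, Crabp2, Rara, Rarb and Rarg. They were chosen by name, out of 49315 gene identifiers in the deposited count table, as a set that is a hallmark of stellate cells. All 9 were in the table, and 8 passed the filter on low counts that precedes the test, the exception being Lrat. The libraries were poly-A RNA from mouse pancreatic stellate cells of C57BL6 origin, which are fibroblast-like cells of the pancreas. The line had grown out spontaneously into an immortal culture and was infected with lentivirus for Cas9 and a guide RNA, selected with puromycin and used as a mixed, uncloned population. The cells labelled HIF1a-ko carried guide sg2 against Hif1a, which encodes the subunit of HIF-1 that oxygen destabilises, and were kept at 0.5% oxygen for 48 h (HIF1a-ko hypoxia). Cells with the control guide R26 sg1 were kept for 48 h at 0.5% oxygen (R26 hypoxia) or at 20% oxygen (R26 normoxia). Each of these 3 groups had 3 libraries.

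In a stellate cell at rest, retinol is esterified by Lrat and kept in lipid droplets, and the loss of these droplets accompanies activation into a matrix-producing cell. Retinol is oxidised to retinal, retinal is oxidised to retinoic acid by aldehyde dehydrogenases, and a reductase can return retinal to retinol. Retinoic acid is held in the cytosol by Crabp proteins, binds nuclear receptors (RAR) that act as pairs with RXR receptors on DNA, and is destroyed by cytochromes of the Cyp26 family.

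Libraries held 43837809 to 107840223 counts. In each group 1 library was much deeper than the other 2 (HIF1a-ko hypoxia 1, R26 hypoxia 3 and R26 normoxia 3), and these 3 stood apart in markers of other cell types. The summed level of 6 adipocyte markers was 0.274 to 0.597 CPM (counts scaled to a common library size) in the 3 deeper libraries and 61.1 to 140.4 CPM in the 6 shallower ones, and that of 7 epithelial markers was 13.1 to 42.6 and 85.9 to 123.1 CPM. Since every group contributed 1 deeper library, the classes are balanced over the groups, and a call on a named retinoid gene that appeared or was lost within the 6 shallower libraries, or with depth class as a term in the fit, is given with that value. The 11 stellate cell and fibroblast markers summed to 13480 to 13940 CPM in HIF1a-ko hypoxia, 19780 to 21320 CPM in R26 hypoxia and 17540 to 19260 CPM in R26 normoxia. Of 7 acinar and islet markers, 4 (Prss1, Amy2a1, Ins1 and Ins2) were at 0 in all 9 libraries. The 7 summed to 4.22 to 6.66, 9.90 to 12.2 and 9.86 to 13.98 CPM in the same groups. Most of this was Cela1, at 4.22 to 4.93, 9.90 to 11.5 and 9.86 to 12.7 CPM. Gcg reached 1.73 CPM, and Cpa1 was at or near 0. Of the markers of the quiescent state, Gfap was at 0.189 to 0.719 CPM, Reln at 0 to 0.835 CPM and Lrat at or near 0 throughout, while Acta2, which encodes smooth muscle actin and marks activated cells, was at 736 to 1553 CPM. Hif1a itself averaged 121.7 ± 4.27 CPM in HIF1a-ko hypoxia, 184.5 ± 20.1 CPM in R26 hypoxia and 203.7 ± 18.3 CPM in R26 normoxia (SD, n = 3 each). A Cas9 cut need not lower a transcript, so this is a weak check of the label.

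Below, a level is a CPM value scaled with TMM factors, and a gene is called when its adjusted p (edgeR's quasi-likelihood test, Benjamini-Hochberg over all 18211 genes tested) is under 0.05. A log2 fold change is followed by a standard error (SE) of the fit. This SE was worked back from the test, as the size of the log2 fold change over the square root of the test's F statistic. Whether the libraries of 1 group were grown as separate cultures is not in the labels, and the p-values therefore cover only the variation among these libraries, some or all of which may be technical.

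Among the 8 genes tested, 4 fell in HIF1a-ko hypoxia against R26 hypoxia and none rose: the receptors Rara and Rarg, the retinol dehydrogenase Rdh10 and the retinal reductase Dhrs3. In that comparison 45.8% of all genes tested were called, 23.8% lower and 22% higher. Against R26 normoxia, 4 of the 8 also fell in HIF1a-ko hypoxia and none rose (Rara, Rarg, Rdh10 and Aldh1a2), where 41.4% of all genes were called, 21.9% lower and 19.5% higher. In R26 hypoxia against R26 normoxia, Dhrs3 rose and none fell, so that 1 of 8 was called where 25.2% of all genes were called (12.8% higher and 12.4% lower), a share no larger than the background. The median log2 fold change of the 8 genes was -0.43 in HIF1a-ko hypoxia against R26 hypoxia, against -0.015 over all genes, and 0.003 in R26 hypoxia against R26 normoxia, with -0.01 over all genes. HIF1a-ko hypoxia against R26 normoxia gave a median of -0.08 for the 8 genes and -0.01 over all genes. The comparisons share libraries, so their fold changes are not independent of each other. In bulk RNA, fewer cells that express a gene and less RNA per cell cannot be told apart.

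**Figure D1:**
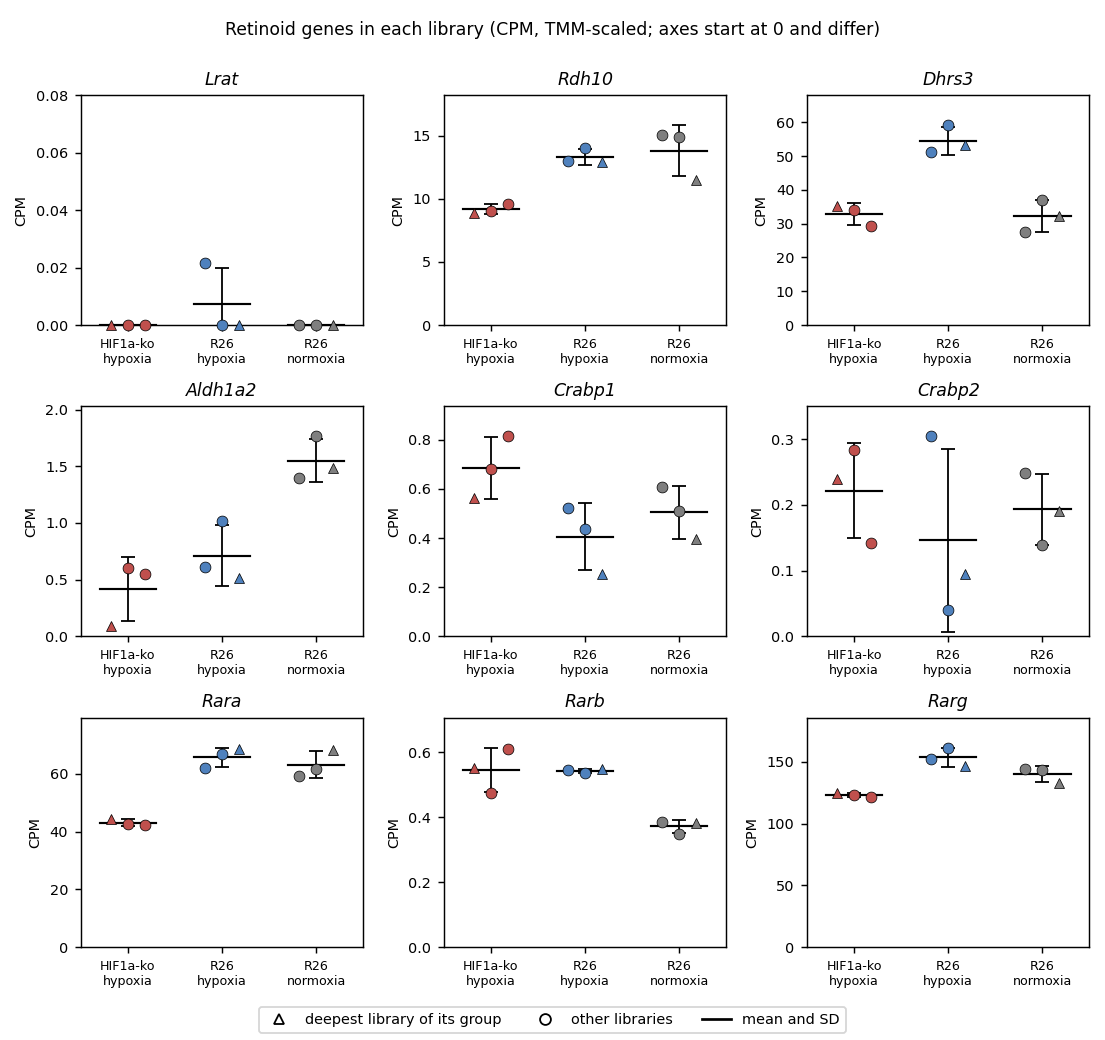
Level of each of the 9 genes in every library (CPM, vertical axis from 0, scale differs by panel), with HIF1a-ko hypoxia, R26 hypoxia and R26 normoxia from left to right; triangles mark the deepest library of each group, and lines give the mean and SD. Rara and Rdh10 are lower in each of the 3 HIF1a-ko libraries than in any of the 6 R26 libraries, and Dhrs3 is higher in all 3 R26 hypoxia libraries than in the other 6.

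**Figure D2:**
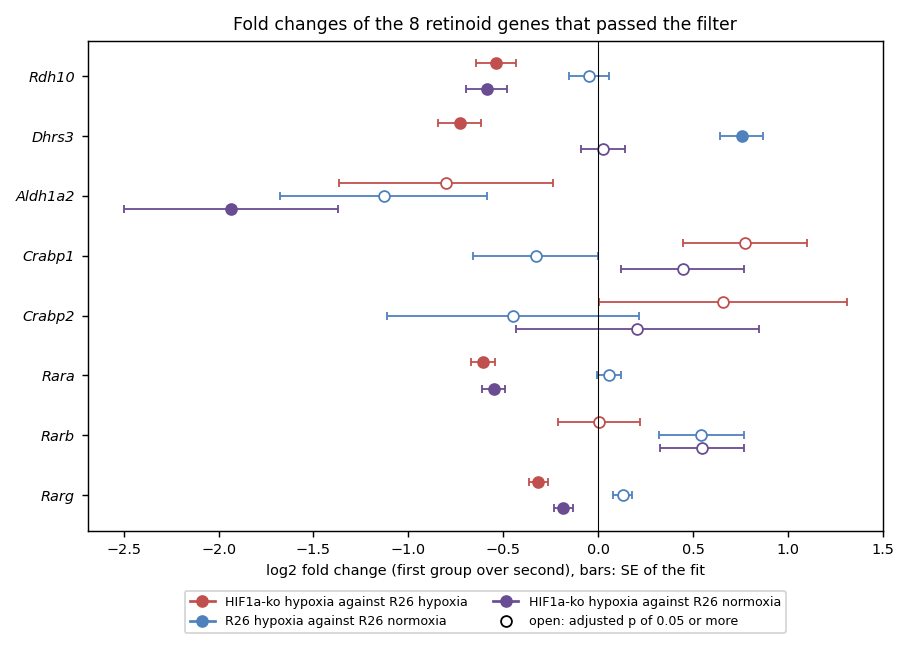
Log2 fold changes of the 8 genes tested (horizontal axis, first group over second; bars are the SE of the fit) in the 3 comparisons, with filled points for an adjusted p under 0.05. Filled points lie left of 0 for Rara, Rarg and Rdh10 in both comparisons of HIF1a-ko hypoxia, and Dhrs3 has 1 on each side.

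Per length of merged exon, which allows genes to be compared with each other, Rarg stood highest in every group, at 29.0 ± 0.371 CPM per kb in HIF1a-ko hypoxia, 36.0 ± 1.74 in R26 hypoxia and 32.9 ± 1.47 in R26 normoxia (SD, n = 3 each). Dhrs3 followed with 11.2 ± 1.09 CPM per kb in HIF1a-ko hypoxia, where its libraries overlapped those of Rara (9.87 ± 0.264). In R26 hypoxia Dhrs3 (18.6 ± 1.41 CPM per kb) lay above Rara (15.0 ± 0.781) without overlap. In R26 normoxia the order was the other way round, with Rara at 14.5 ± 1.06 CPM per kb above Dhrs3 at 11.02 ± 1.64. Rdh10 came next in all 3 groups, at 2.21 ± 0.0908 CPM per kb in HIF1a-ko hypoxia, 3.20 ± 0.149 in R26 hypoxia and 3.32 ± 0.481 in R26 normoxia. The other genes were all under 1 CPM per kb: Aldh1a2 and Crabp1 overlapped in both R26 groups and did not overlap in HIF1a-ko hypoxia, where Crabp1 (0.855 ± 0.157) was above Aldh1a2 (0.184 ± 0.124). Crabp2 (0.168 ± 0.0547, 0.111 ± 0.106 and 0.146 ± 0.0413 CPM per kb in HIF1a-ko hypoxia, R26 hypoxia and R26 normoxia) overlapped Rarb in the first 2 of these groups. Lrat was last everywhere.

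Storage. Lrat (ENSMUSG00000028003, GRCm38 chromosome 3, 82892579 to 82903973, minus strand), which makes the retinyl esters that stellate cells store, gave 1 read in all 9 libraries together. That read was in R26 hypoxia 1, where it amounts to 0.0218 CPM, and the count was 0 in all 3 HIF1a-ko hypoxia libraries, in the other 2 R26 hypoxia libraries and in all 3 R26 normoxia libraries. A count of 0 allows a level of up to 0.0284 CPM in the deepest library and 0.0697 CPM in the shallowest (3 counts, counting error only). So the storage enzyme that defines quiescent stellate cells was not detectable at this depth in 8 of 9 libraries, and no fold change is given.

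The retinol and retinal enzymes. Rdh10 (ENSMUSG00000025921, chromosome 1, 16105774 to 16133734, plus strand) oxidises retinol to retinal, a step needed for retinoic acid synthesis in the mouse embryo. Its level was 8.88, 9.07 and 9.61 CPM in the HIF1a-ko hypoxia libraries, 13.0, 14.1 and 13.0 CPM in the R26 hypoxia libraries and 15.1, 14.9 and 11.5 CPM in the R26 normoxia libraries. The 3 HIF1a-ko libraries were below all 6 R26 libraries, while the 2 R26 groups overlapped. Rdh10 fell by 0.54 on the log2 scale (SE 0.11, a 1.45-fold difference) in HIF1a-ko hypoxia against R26 hypoxia (adjusted p = 0.00247) and by 0.59 (SE 0.11) against R26 normoxia (adjusted p = 0.00175). Between R26 hypoxia and R26 normoxia the log2 fold change was -0.05 ± 0.11 (adjusted p = 0.799), and its sign turned without R26 normoxia replicate 1 (0.02) or 2 (0.01).

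Dhrs3 (ENSMUSG00000066026, chromosome 4, 144892827 to 144928209, plus strand) reduces retinal back to retinol, and retinoic acid is known to induce it. It stood at 35.1, 34.2 and 29.2 CPM in HIF1a-ko hypoxia, at 51.1, 59.1 and 53.2 CPM in R26 hypoxia and at 27.4, 37.0 and 32.4 CPM in R26 normoxia. All 3 R26 hypoxia libraries were above the other 6, and HIF1a-ko hypoxia and R26 normoxia overlapped. Dhrs3 rose 1.69-fold in R26 hypoxia against R26 normoxia (log2 fold change 0.76 ± 0.11, adjusted p = 0.00136) and was 1.66-fold lower in HIF1a-ko hypoxia than in R26 hypoxia (log2 fold change -0.73 ± 0.11, adjusted p = 0.000582). HIF1a-ko hypoxia against R26 normoxia gave 0.03 ± 0.11 (adjusted p = 0.891). This was the only one of the 8 genes called in R26 hypoxia against R26 normoxia, and the call held in every alternative fit run, with log2 fold changes of 0.65 to 0.87.

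Aldh1a2 (ENSMUSG00000013584, chromosome 9, 71215789 to 71296243, plus strand) makes retinoic acid from retinal. It was low, at 0.0937, 0.606 and 0.550 CPM in HIF1a-ko hypoxia, 0.609, 1.02 and 0.511 CPM in R26 hypoxia and 1.40, 1.77 and 1.49 CPM in R26 normoxia, from 9 to 132 reads per library. All 6 libraries kept at 0.5% oxygen were below the 3 R26 normoxia libraries, and HIF1a-ko hypoxia overlapped R26 hypoxia, with its deepest library lowest of all. Aldh1a2 fell by 1.93 on the log2 scale (SE 0.57, 3.82-fold) in HIF1a-ko hypoxia against R26 normoxia (adjusted p = 0.0213). Within the 6 shallower libraries this was -1.43 (adjusted p = 0.00158), and without R26 normoxia replicate 2 the call was lost (adjusted p = 0.0585). R26 hypoxia against R26 normoxia gave -1.13 ± 0.54, which was not called (adjusted p = 0.171). That comparison was called in a fit of the 2 R26 groups with the replicate number as a block (-1.17, adjusted p = 0.00262; replicate 3 is the deeper library of both groups, so the block also takes up depth class), in a fit of those 2 groups alone (-1.11, adjusted p = 0.0385), with depth class added to the fit (-1.19, adjusted p = 0.0174), within the 6 shallower libraries (-0.94, adjusted p = 0.0282) and without HIF1a-ko hypoxia replicate 1 (-1.12, adjusted p = 0.0219). HIF1a-ko hypoxia against R26 hypoxia gave -0.80 ± 0.56 (adjusted p = 0.287), and -0.28 without HIF1a-ko hypoxia replicate 1. The adipocyte and epithelial marker sums move with the depth class that holds the lowest HIF1a-ko library, and their part in this gene's values was not tested.

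The 2 retinoic acid binding proteins. Crabp1 (ENSMUSG00000032291, chromosome 9, 54764748 to 54773110, plus strand), a cytosolic protein that sequesters retinoic acid, was at 0.562, 0.682 and 0.814 CPM in HIF1a-ko hypoxia, 0.522, 0.438 and 0.255 CPM in R26 hypoxia and 0.610, 0.511 and 0.394 CPM in R26 normoxia. The HIF1a-ko hypoxia libraries were all above the R26 hypoxia libraries, by a log2 fold change of 0.78 ± 0.33 that was not called (adjusted p = 0.0816). Adding depth class to the fit made it a call (adjusted p = 0.0153). The deepest library was the lowest of its group in all 3 groups. The other 2 comparisons, -0.33 ± 0.33 for R26 hypoxia against R26 normoxia and 0.45 ± 0.32 for HIF1a-ko hypoxia against R26 normoxia, were not called (adjusted p = 0.545 and 0.315).

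Crabp2 (ENSMUSG00000004885, chromosome 3, 87948666 to 87953376, plus strand), which hands retinoic acid to its receptors, gave 2 to 23 reads per library. These amount to 0.239, 0.284 and 0.143 CPM in HIF1a-ko hypoxia, 0.305, 0.0398 and 0.0945 CPM in R26 hypoxia and 0.249, 0.139 and 0.191 CPM in R26 normoxia. The 3 groups overlapped. Its log2 fold changes, 0.66 ± 0.65 in HIF1a-ko hypoxia against R26 hypoxia, -0.45 ± 0.66 in R26 hypoxia against R26 normoxia and 0.21 ± 0.64 in HIF1a-ko hypoxia against R26 normoxia, were no larger than about 1 SE, and none was called (adjusted p = 0.461, 0.702 and 0.841). They hang on single libraries: R26 hypoxia against R26 normoxia gave -1.41 without R26 hypoxia replicate 1 and -0.02 without replicate 2, and HIF1a-ko hypoxia against R26 hypoxia gave 1.62 and 0.23 without the same libraries.

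The receptors. Rara (ENSMUSG00000037992, chromosome 11, 98927818 to 98974942, plus strand) encodes the widely expressed receptor RAR alpha. Its level was 44.4, 42.6 and 42.3 CPM in HIF1a-ko hypoxia, 61.8, 66.7 and 68.4 CPM in R26 hypoxia and 59.4, 61.7 and 68.3 CPM in R26 normoxia. The HIF1a-ko libraries lay below all R26 libraries, with a gap wider than the spread of any group, and the 2 R26 groups overlapped. Rara fell by 0.61 on the log2 scale (SE 0.06, 1.52-fold) in HIF1a-ko hypoxia against R26 hypoxia (adjusted p = 3.92e-05) and by 0.55 (SE 0.06) against R26 normoxia (adjusted p = 9.04e-05). In R26 hypoxia against R26 normoxia the log2 fold change was 0.06 ± 0.06 (adjusted p = 0.589).

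Rarg (ENSMUSG00000001288, chromosome 15, 102234938 to 102257517, minus strand), the RAR gamma gene, was at 125, 123 and 122 CPM in HIF1a-ko hypoxia, 152, 162 and 147 CPM in R26 hypoxia and 144, 143 and 133 CPM in R26 normoxia. None of the 3 groups overlapped another. Rarg fell by 0.32 on the log2 scale (SE 0.05, 1.24-fold) in HIF1a-ko hypoxia against R26 hypoxia (adjusted p = 0.000634). Against R26 normoxia it was lower by 1.14-fold (log2 fold change -0.18 ± 0.05, adjusted p = 0.0147), and that call was lost without the filter on low counts (adjusted p = 0.0748) and without R26 normoxia replicate 1 (0.0563), R26 normoxia replicate 2 (0.0539), HIF1a-ko hypoxia replicate 1 (0.0522) or HIF1a-ko hypoxia replicate 3 (0.103). R26 hypoxia against R26 normoxia gave 0.13 ± 0.05 and was not called (adjusted p = 0.088). It was called with the replicate number as a block (0.15, adjusted p = 0.00832), with depth class added to the fit (0.13, adjusted p = 0.0282) and within the 6 shallower libraries (0.14, adjusted p = 0.0448).

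Of the summed Rara, Rarb and Rarg level per kb, Rarg made up 74.4% ± 0.299 in HIF1a-ko hypoxia, 70.4% ± 1.56 in R26 hypoxia and 69.4% ± 2.51 in R26 normoxia (SD, n = 3 each). The Rara share was 25.4% ± 0.292, 29.4% ± 1.55 and 30.5% ± 2.502. The lowest Rarg share in HIF1a-ko hypoxia (74.1%) was above the highest in R26 hypoxia (71.5%) and in R26 normoxia (71.3%). These shares were given no test.

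Rarb (ENSMUSG00000017491, chromosome 14, 16430839 to 16819156, minus strand) encodes RAR beta, whose own promoter carries a retinoic acid response element. It gave 15 to 58 reads per library, or 0.552, 0.473 and 0.611 CPM in HIF1a-ko hypoxia, 0.544, 0.537 and 0.548 CPM in R26 hypoxia and 0.384, 0.348 and 0.383 CPM in R26 normoxia. All 6 libraries at 0.5% oxygen were above the 3 at 20%. The log2 fold changes were 0.54 ± 0.22 for R26 hypoxia against R26 normoxia (adjusted p = 0.111), 0.55 ± 0.22 for HIF1a-ko hypoxia against R26 normoxia (adjusted p = 0.0785) and 0.01 ± 0.22 for HIF1a-ko hypoxia against R26 hypoxia (adjusted p = 0.994), so none was called. Exons of Rarb overlap those of Top2b on the other strand over 1793 bases, and Top2b was counted 153059 times over the 9 libraries, where Rarb was counted 284 times. The strand setting of the counting is not given in the sources used here, so the Rarb counts are uncertain.

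Retinoic acid receptors bind direct repeats of a 6-base half-site, and a pair with 5 bases between them is called DR5. Rarb and Cyp26a1, which encodes a retinoic acid hydroxylase, are long-known retinoic acid targets with such repeats near their start. DR5 was searched in the RefSeq promoter windows (GRCm38.p6, 250 bases before to 50 after each start) on both strands as 1 half-site, then NNNNN, then another half-site, where a half-site could be AGGTCA, or else AGTTCA, or else GGGTCA, or else GGTTCA. Of 32851 windows, 32 (0.0974%) held it. Windows were found for 7 of the 9 genes (13 windows; Crabp2 and Rdh10 were not matched) and for 35 of 49 genes of a wider retinoid list (48 windows). Among these, Rarb and Cyp26a1 held a DR5, whose first base lay 53 bases before the start in Rarb and 32 bases before it in Cyp26a1, where it is on the opposite strand. The windows of these 2 genes are shown because they carry the element, with it in capitals, and the first Dhrs3 window because Dhrs3 was the gene that differed in opposite directions in 2 comparisons.
Rarb, chr14:16575427-16575726, minus strand: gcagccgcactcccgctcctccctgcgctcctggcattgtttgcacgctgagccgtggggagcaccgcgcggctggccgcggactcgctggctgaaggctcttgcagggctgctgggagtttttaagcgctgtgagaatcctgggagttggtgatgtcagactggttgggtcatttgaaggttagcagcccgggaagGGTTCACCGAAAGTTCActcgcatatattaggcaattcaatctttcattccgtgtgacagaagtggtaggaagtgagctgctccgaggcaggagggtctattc
Cyp26a1, chr19:37697558-37697857, plus strand: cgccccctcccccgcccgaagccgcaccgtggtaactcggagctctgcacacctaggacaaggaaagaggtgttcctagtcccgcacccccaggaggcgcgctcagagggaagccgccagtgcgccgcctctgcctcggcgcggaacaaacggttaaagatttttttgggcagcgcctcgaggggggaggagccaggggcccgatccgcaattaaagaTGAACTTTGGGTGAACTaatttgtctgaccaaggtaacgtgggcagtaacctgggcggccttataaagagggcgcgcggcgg
Dhrs3, chr4:144892577-144892876, plus strand: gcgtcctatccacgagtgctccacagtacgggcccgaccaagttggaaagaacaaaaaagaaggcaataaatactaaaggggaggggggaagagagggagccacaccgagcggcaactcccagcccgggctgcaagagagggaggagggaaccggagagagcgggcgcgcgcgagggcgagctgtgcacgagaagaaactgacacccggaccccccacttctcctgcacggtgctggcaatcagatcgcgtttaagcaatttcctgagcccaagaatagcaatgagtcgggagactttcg
None of the 3 Dhrs3 windows held DR5, the same half-sites with 2 bases between them (DR2, in 0.268% of all windows), or the hypoxia motifs ACGTG (19.6% of all windows) and GCGTG (32.4%), searched on both strands. That says only that these letters are not in these windows. Cyp26a1 was at 0.167, 0.303 and 0.387 CPM in HIF1a-ko hypoxia, 0.0653, 0.139 and 0.00945 CPM in R26 hypoxia and 0.226, 0.116 and 0.0901 CPM in R26 normoxia. Its HIF1a-ko hypoxia libraries were all above its R26 hypoxia libraries (log2 fold change 2.10 ± 0.80), which was not called (adjusted p = 0.0575). It was called once depth class was added to the fit (adjusted p = 0.00339), within the 6 shallower libraries (0.0275), without trended dispersion (0.0231), without R26 hypoxia replicate 2 (log2 fold change 3.13, adjusted p = 0.0248) and by DESeq2 (0.0447).

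Beyond the 9 genes, a wider list of 49 genes of retinoid handling and response was read from the same fit, and 43 passed the filter (not Rbp2, Ttr, Bco1, Rxrg, Hoxb1 and Stra8). In HIF1a-ko hypoxia against R26 hypoxia 9 of the 43 rose and 11 fell, with a median log2 fold change of -0.09. In HIF1a-ko hypoxia against R26 normoxia 6 rose and 7 fell (median 0.07). In R26 hypoxia against R26 normoxia 5 rose and 7 fell (median -0.06), and, of the 42 genes in a fit with the replicate number as a block, 11 rose and 11 fell. Called in either direction were thus 20, 13 and 12 of the 43, where 45.8%, 41.4% and 25.2% of all genes tested were called in these comparisons, and 41.7% of all genes in the block fit. Nothing particular to the list is read from these counts.

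**Figure D3:**
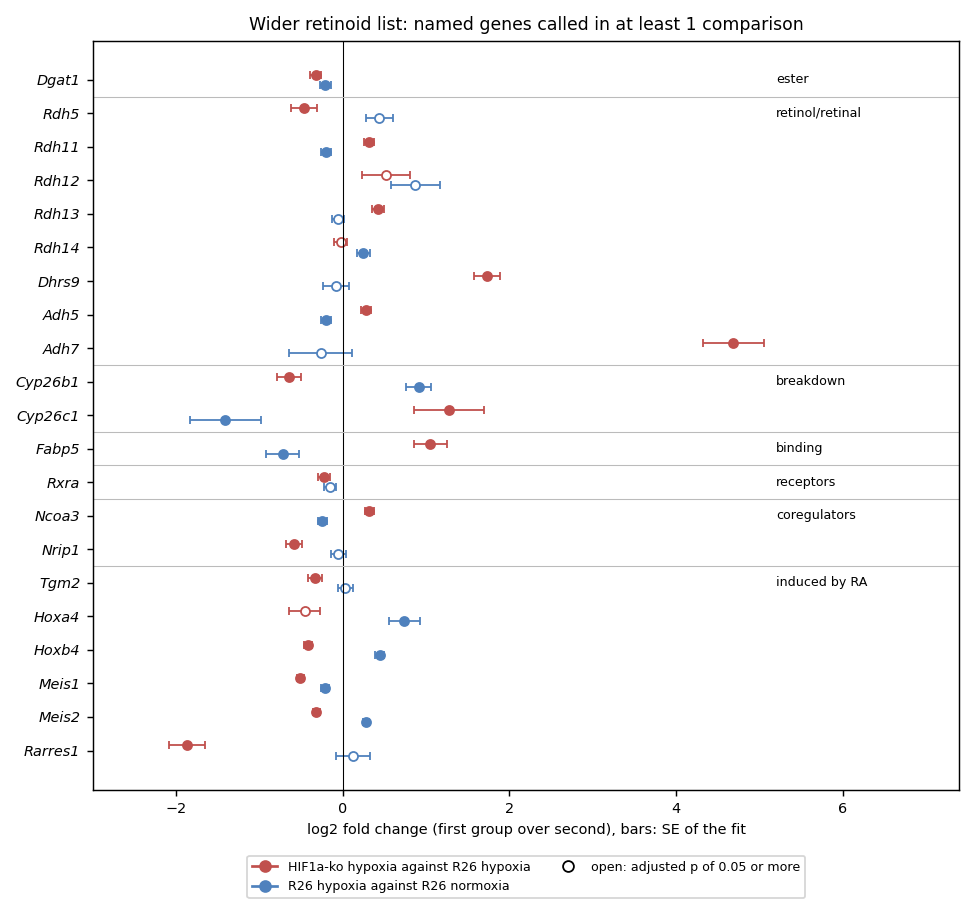
Log2 fold changes (horizontal axis, first group over second; bars are the SE of the fit) of the 21 genes of the wider list that are named in the text and were called in at least 1 of the 3 comparisons, by role, for HIF1a-ko hypoxia against R26 hypoxia and R26 hypoxia against R26 normoxia, with filled points for an adjusted p under 0.05. Adh7 and Dhrs9 lie farthest to the right and Rarres1 farthest to the left in HIF1a-ko hypoxia against R26 hypoxia.

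Uptake and transport. Rbp4, the plasma carrier of retinol, Stra6, its receptor for uptake, and Rbp7, a cellular retinol-binding protein, were not called in any comparison and varied widely within groups. Rbp4 was at 0.396, 1.21 and 1.81 CPM in HIF1a-ko hypoxia, 4.05, 2.75 and 0.832 CPM in R26 hypoxia and 1.60, 1.53 and 0.0788 CPM in R26 normoxia. Its lowest library was the deepest one in each group, as for the adipocyte marker sum, whose part in this was not tested. Rbp4 was called higher in R26 hypoxia than in R26 normoxia with the replicate number as a block (log2 fold change 1.52, adjusted p = 0.00489), with depth class added to the fit (1.49, adjusted p = 0.00295) and within the 6 shallower libraries (1.13, adjusted p = 0.00315). It was called lower in HIF1a-ko hypoxia than in R26 hypoxia with depth class added (-1.16, adjusted p = 0.00678) and within the 6 shallower libraries (-1.16, adjusted p = 0.000962). Stra6 ranged from 0.0625 to 0.454 CPM in HIF1a-ko hypoxia, 0.161 to 0.557 in R26 hypoxia and 0.236 to 0.475 in R26 normoxia. Rbp7 ranged from 0 to 0.285, from 0.00945 to 0.979 and from 0.0232 to 1.06 CPM.

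Esterification outside Lrat. Dgat1, a triglyceride enzyme that can also esterify retinol, was at 19.7, 17.6 and 17.0 CPM in HIF1a-ko hypoxia, 23.4, 21.8 and 22.8 CPM in R26 hypoxia and 25.96, 26.3 and 26.4 CPM in R26 normoxia. No group overlapped another. It was called lower in HIF1a-ko hypoxia against R26 hypoxia (log2 fold change -0.32 ± 0.07, adjusted p = 0.00279), in HIF1a-ko hypoxia against R26 normoxia (-0.54 ± 0.07, adjusted p = 0.000151) and in R26 hypoxia against R26 normoxia (-0.21 ± 0.07, adjusted p = 0.041). The last call was lost without the filter on low counts (adjusted p = 0.146), within the 6 shallower libraries (0.0636) and without any 1 of 8 libraries (0.0562 to 0.129).

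Other retinol and retinal enzymes. Of 13 tested, 5 rose and 1 fell in HIF1a-ko hypoxia against R26 hypoxia, and 5 rose and none fell against R26 normoxia, where 45.8% and 41.4% of all genes were called. Adh7, a class IV alcohol dehydrogenase that oxidises retinol, was at 4.56, 5.34 and 4.07 CPM in HIF1a-ko hypoxia, 0.0870, 0.279 and 0.170 CPM in R26 hypoxia and 0.136, 0.256 and 0.248 CPM in R26 normoxia. It rose 25.8-fold in HIF1a-ko hypoxia against R26 hypoxia (log2 fold change 4.69 ± 0.37, adjusted p = 7.05e-06) and 21.4-fold against R26 normoxia (4.42 ± 0.36, adjusted p = 1.21e-05), the largest differences in the wider list. R26 hypoxia against R26 normoxia gave -0.27 ± 0.38 (adjusted p = 0.686). Per kb of exon Adh7 reached 1.23 CPM in HIF1a-ko hypoxia, next to 2.21 for Rdh10 in the same cells.

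Dhrs9, a short-chain dehydrogenase with retinol dehydrogenase activity, was at 7.69, 9.13 and 7.39 CPM in HIF1a-ko hypoxia, 2.35, 2.87 and 2.10 CPM in R26 hypoxia and 2.89, 2.58 and 2.26 CPM in R26 normoxia. The HIF1a-ko libraries were above all R26 libraries. Dhrs9 rose 3.32-fold in HIF1a-ko hypoxia against R26 hypoxia (log2 fold change 1.73 ± 0.16, adjusted p = 1.78e-05) and 3.14-fold against R26 normoxia (1.65 ± 0.16, adjusted p = 3.06e-05). Rdh12, which reduces retinal in the retina, averaged 1.05 ± 0.171 CPM in HIF1a-ko hypoxia, 0.728 ± 0.212 CPM in R26 hypoxia and 0.397 ± 0.103 CPM in R26 normoxia (SD, n = 3 each) and was called higher in HIF1a-ko hypoxia than in R26 normoxia (log2 fold change 1.39 ± 0.30, adjusted p = 0.00439). In R26 hypoxia against R26 normoxia Rdh12 gave 0.87 ± 0.30 (adjusted p = 0.0594). That difference was called with the replicate number as a block (0.90, adjusted p = 0.0387), with depth class added to the fit (0.88, adjusted p = 0.0246) and without R26 hypoxia replicate 1 (1.06, adjusted p = 0.0355). Of the rest, Rdh11, Rdh13 and Adh5 rose and Rdh5 fell in HIF1a-ko hypoxia against R26 hypoxia, by log2 fold changes of 0.31 ± 0.06, 0.42 ± 0.07, 0.27 ± 0.06 and -0.47 ± 0.16 (adjusted p = 0.00225, 0.001, 0.00449 and 0.0345). The Rdh5 call was lost without the filter on low counts (adjusted p = 0.0704), in a fit of the 2 groups alone (0.0566) and without R26 normoxia replicate 3 (0.0523), R26 hypoxia replicate 1 (0.068) or 2 (0.132), or HIF1a-ko hypoxia replicate 1 (0.0762) or 3 (0.138), and its exons overlap those of Bloc1s1 on the same strand over 720 bases. In R26 hypoxia against R26 normoxia 1 of the 13 rose (Rdh14) and 2 fell (Rdh11 and Adh5), each by no more than 0.25 on the log2 scale, where 25.2% of all genes were called. These 3 calls were lost without the filter on low counts (adjusted p = 0.102 for Rdh14, 0.0996 for Rdh11 and 0.0602 for Adh5). Leaving out any 1 of 7 libraries ended the call of Rdh14 (adjusted p = 0.0511 to 0.139), any 1 of 7 that of Rdh11 (0.0614 to 0.119) and any 1 of 6 that of Adh5 (0.0582 to 0.125). Rdh11 was also lost within the 6 shallower libraries (adjusted p = 0.107), and Rdh14 and Rdh11 with the replicate block over all 9 libraries (0.0599 and 0.0554). Rdh5 was not called in R26 hypoxia against R26 normoxia (0.44, adjusted p = 0.0724) but was called higher with depth class added (0.42, adjusted p = 0.0288), within the 6 shallower libraries (0.57, adjusted p = 0.019) and with the replicate number as a block (0.43, adjusted p = 0.0121). Rdh5 was also called higher there with the block over all 9 libraries (0.43, adjusted p = 0.0365), without R26 hypoxia replicate 3 (0.56, adjusted p = 0.0351) and by DESeq2 (0.44, adjusted p = 0.044). Adh7 and Dhrs9 were thus called higher in the same cells in which Rdh10 was called lower; no enzyme activity was measured.

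**Figure D4:**
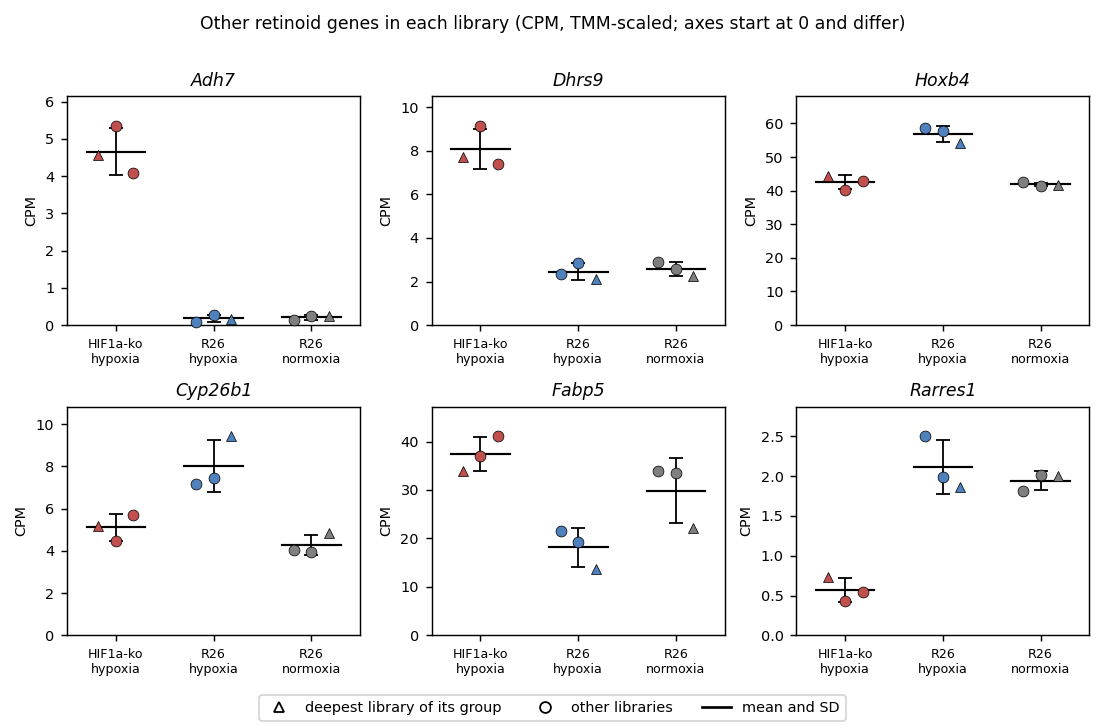
Levels of 6 genes of the wider list in every library (CPM, vertical axis from 0, scale differs by panel), with HIF1a-ko hypoxia, R26 hypoxia and R26 normoxia from left to right; triangles mark the deepest library of each group, and lines give the mean and SD. Adh7 and Dhrs9 are higher and Rarres1 lower in each of the 3 HIF1a-ko libraries than in any of the 6 R26 libraries, and Cyp26b1 and Hoxb4 are highest in R26 hypoxia.

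Retinal oxidation. Aldh1a1, an aldehyde dehydrogenase that makes retinoic acid like Aldh1a2, was at 122.5, 134 and 114 CPM in HIF1a-ko hypoxia, 127, 128 and 132 CPM in R26 hypoxia and 135, 135 and 145 CPM in R26 normoxia. It made up 95.4% ± 2.16, 94.3% ± 1.10 and 91.9% ± 1.57 of the summed level per kb of Aldh1a1, Aldh1a2 and Aldh1a3 in HIF1a-ko hypoxia, R26 hypoxia and R26 normoxia (SD, n = 3 each), so Aldh1a2 was a small part of the transcripts of this step in all groups. Its log2 fold changes of -0.06 ± 0.06 (HIF1a-ko hypoxia against R26 hypoxia), -0.10 ± 0.06 (R26 hypoxia against R26 normoxia) and -0.17 ± 0.06 (HIF1a-ko hypoxia against R26 normoxia) were not called (adjusted p = 0.439, 0.274 and 0.0545). The last was called with depth class added to the fit (-0.17, adjusted p = 0.0189) and without HIF1a-ko hypoxia replicate 2 (-0.23, adjusted p = 0.0127). Aldh1a1 shares 3.1% of its 50-base stretches with other genes, among them Aldh1a7. Aldh1a3, the third enzyme of this kind, averaged 4.75 ± 2.04, 5.82 ± 1.28 and 8.15 ± 1.78 CPM in HIF1a-ko hypoxia, R26 hypoxia and R26 normoxia and was not called. HIF1a-ko hypoxia against R26 normoxia gave -0.78 (adjusted p = 0.089), which was called with depth class added (-0.85, adjusted p = 0.000888), within the 6 shallower libraries (-0.60, adjusted p = 0.00404) and by DESeq2 (adjusted p = 0.0294). R26 hypoxia against R26 normoxia gave -0.49 (adjusted p = 0.34), called with depth class added (-0.47, adjusted p = 0.0414), within the 6 shallower libraries (-0.51, adjusted p = 0.0178) and with the replicate number as a block (-0.46, adjusted p = 0.0138). Aldh8a1, which oxidises 9-cis-retinal, was at 0.087 to 0.298 CPM over all libraries and was not called.

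Breakdown and binding. Cyp26b1, a cytochrome that hydroxylates retinoic acid, was at 5.19, 4.45 and 5.70 CPM in HIF1a-ko hypoxia, 7.18, 7.44 and 9.42 CPM in R26 hypoxia and 4.02, 3.95 and 4.82 CPM in R26 normoxia. As with Dhrs3, all 3 R26 hypoxia libraries were above the other 6. Cyp26b1 rose 1.88-fold in R26 hypoxia against R26 normoxia (log2 fold change 0.91 ± 0.15, adjusted p = 0.00197) and fell 1.57-fold in HIF1a-ko hypoxia against R26 hypoxia (-0.65 ± 0.15, adjusted p = 0.00501). HIF1a-ko hypoxia against R26 normoxia gave 0.26 ± 0.15 (adjusted p = 0.197).

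The related Cyp26c1, another retinoic acid hydroxylase, went the other way at a far lower level, with 0.500, 0.284 and 0.326 CPM in HIF1a-ko hypoxia, 0.196, 0.0796 and 0.180 CPM in R26 hypoxia and 0.475, 0.465 and 0.304 CPM in R26 normoxia. It was called higher in HIF1a-ko hypoxia than in R26 hypoxia (log2 fold change 1.28 ± 0.42, adjusted p = 0.0321) and lower in R26 hypoxia than in R26 normoxia (-1.41 ± 0.42, adjusted p = 0.037). Both calls were lost without the filter on low counts (adjusted p = 0.053 and 0.0689) and in fits of only the 2 groups compared (0.058 and 0.0656), the first was also lost within the 6 shallower libraries (0.0925), and leaving out single libraries of each of the 3 groups ended at least 1 of them (adjusted p = 0.051 to 0.122).

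Fabp5, a fatty acid binding protein that can also carry retinoic acid, was at 34.0, 37.1 and 41.1 CPM in HIF1a-ko hypoxia, 21.6, 19.2 and 13.7 CPM in R26 hypoxia and 33.9, 33.5 and 22.2 CPM in R26 normoxia. The R26 hypoxia libraries were below the other 6. Fabp5 was called higher in HIF1a-ko hypoxia than in R26 hypoxia (log2 fold change 1.05 ± 0.20, adjusted p = 0.00182) and lower in R26 hypoxia than in R26 normoxia (-0.72 ± 0.20, adjusted p = 0.0253). The second call was lost in a fit of the 2 groups alone (adjusted p = 0.0686) and without R26 normoxia replicate 1 (0.0928) or 2 (0.0907) or R26 hypoxia replicate 2 (0.0585) or 3 (0.0577). HIF1a-ko hypoxia against R26 normoxia gave 0.33 ± 0.19 (adjusted p = 0.218), which was called with depth class added to the fit (0.35, adjusted p = 0.00305) and within the 6 shallower libraries (0.23, adjusted p = 0.0239).

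RXR partners and coregulators. Rxra, an RXR partner of the RAR receptors, was at 116, 122 and 127 CPM in HIF1a-ko hypoxia, 149.7, 147 and 131 CPM in R26 hypoxia and 162, 166 and 146 CPM in R26 normoxia. It was called lower in HIF1a-ko hypoxia than in R26 normoxia (log2 fold change -0.38 ± 0.07, adjusted p = 0.0018) and than in R26 hypoxia (-0.23 ± 0.07, adjusted p = 0.0225). The second call was lost without R26 hypoxia replicate 1 (adjusted p = 0.0783) or 2 (0.0724) and without HIF1a-ko hypoxia replicate 1 (0.0966) or 2 (0.0597). R26 hypoxia against R26 normoxia gave -0.15 ± 0.07 (adjusted p = 0.15), called with the replicate number as a block (-0.13, adjusted p = 0.0139) and with depth class added (-0.15, adjusted p = 0.00703). Rxrb, at 26.2 to 36.6 CPM over all libraries, was not called in any comparison, and was called higher in R26 hypoxia than in R26 normoxia in the block fit (0.205, adjusted p = 0.00977), with depth class added (0.19, adjusted p = 0.0375), within the 6 shallower libraries (0.22, adjusted p = 0.0204) and without R26 hypoxia replicate 3 (0.28, adjusted p = 0.0309). Within the 6 shallower libraries it was also called lower in HIF1a-ko hypoxia than in R26 hypoxia (-0.19, adjusted p = 0.0287). Of the 6 coregulators, Ncoa3 (a coactivator) was called higher and Nrip1 (a corepressor) lower in HIF1a-ko hypoxia against R26 hypoxia, by log2 fold changes of 0.32 ± 0.06 and -0.59 ± 0.09 (adjusted p = 0.00128 and 0.000557).

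Genes known to respond to retinoic acid. Of 9 tested, 5 fell and none rose in HIF1a-ko hypoxia against R26 hypoxia: Tgm2, Hoxb4, Meis1, Meis2 and Rarres1. In that comparison 23.8% of all genes were called lower and 22% higher. In R26 hypoxia against R26 normoxia 3 rose (Hoxa4, Hoxb4 and Meis2) and 1 fell (Meis1), where 12.8% of all genes were called higher and 12.4% lower. The Hoxa4 call (log2 fold change 0.74, adjusted p = 0.018) was lost without R26 normoxia replicate 2 (adjusted p = 0.0622) and without R26 hypoxia replicate 2 (0.0516) or 3 (0.0536). Hoxa4 gave -0.46 in HIF1a-ko hypoxia against R26 hypoxia (adjusted p = 0.0709), called with depth class added (-0.46, adjusted p = 0.0163), within the 6 shallower libraries (-0.52, adjusted p = 0.0334) and without HIF1a-ko hypoxia replicate 1 (-0.60, adjusted p = 0.0377). Rarres1, named for its induction by retinoids, averaged 0.571 ± 0.148 CPM in HIF1a-ko hypoxia, 2.12 ± 0.338 CPM in R26 hypoxia and 1.94 ± 0.119 CPM in R26 normoxia (SD, n = 3 each), and fell 3.66-fold in HIF1a-ko hypoxia against R26 hypoxia (log2 fold change -1.87 ± 0.22, adjusted p = 8.62e-05). Hoxb4, a homeobox gene, was at 44.5, 40.3 and 42.8 CPM in HIF1a-ko hypoxia, 58.6, 57.7 and 54.1 CPM in R26 hypoxia and 42.5, 41.4 and 41.7 CPM in R26 normoxia. It rose by 0.44 ± 0.05 on the log2 scale in R26 hypoxia against R26 normoxia (adjusted p = 0.000334) and changed by -0.42 ± 0.05 in HIF1a-ko hypoxia against R26 hypoxia (adjusted p = 0.000133). Meis2, a homeobox cofactor, gave 0.28 ± 0.04 and -0.32 ± 0.04 in the same comparisons (adjusted p = 0.000634 and 8.95e-05). Meis1, its relative, was lower in HIF1a-ko hypoxia than in R26 hypoxia (-0.51 ± 0.05, adjusted p = 1.47e-05) and lower in R26 hypoxia than in R26 normoxia (-0.21 ± 0.05, adjusted p = 0.00761). Dhrs3, Rarb and Cyp26a1, described above as induced by retinoic acid or as its targets, are not among these 9. In HIF1a-ko hypoxia against R26 hypoxia Dhrs3 was called lower, and Rarb (0.01) and Cyp26a1 (2.10, adjusted p = 0.0575) were not called. Cyp26a1 was called higher there in some alternative fits, as given above. Retinoic acid was not measured, and each of these genes has other regulators.

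**Figure D5:**
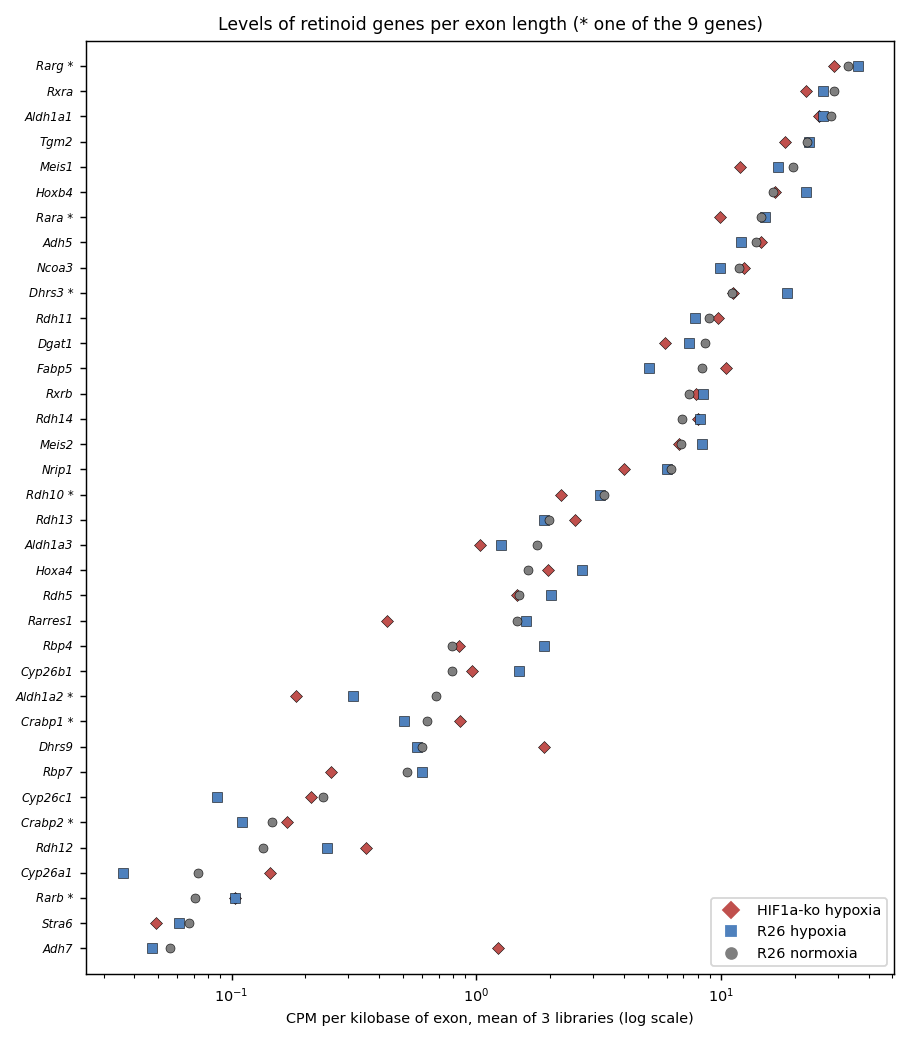
Mean level per kilobase of merged exon (CPM per kb, horizontal log axis) of the 36 retinoid genes named in the text that were at 0.05 CPM per kb or more in R26 normoxia, ordered by that level, for HIF1a-ko hypoxia (diamonds), R26 hypoxia (squares) and R26 normoxia (circles); the 8 tested genes among the 9 carry an asterisk. Rarg, Rxra and Aldh1a1 stand at the top, and Adh7, Dhrs9 and Rarres1 lie well apart from both R26 groups in HIF1a-ko hypoxia.

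The genes whose pattern over the 9 libraries was most like that of a called member were sought among 9634 protein-coding genes by the root mean square difference of mean-centred log2 CPM. For Rara they were Ulk1, Creb3l2 and Tnfsfm13, at 0.034 to 0.038, where the SD of Rara itself over the 9 libraries was 0.280. For Rarg they were Tjp1, Mthfsd and Pcf11, and for Rdh10 they were Ppp1r9b, Snap29 and Paox. Dhrs3 was most like Nacad, Htra3 and Fam20a, at 0.0915, 0.0967 and 0.116 with an SD of 0.377 for Dhrs3. Nacad, Htra3 and Fam20a gave log2 fold changes of -0.72, -0.76 and -0.63 in HIF1a-ko hypoxia against R26 hypoxia, and 0.70, 0.87 and 0.62 in R26 hypoxia against R26 normoxia. None of the genes searched was close to Aldh1a2, whose own SD was 1.10. The nearest (Serpina3n, C4b and Cxcl15) stood at 0.508 to 0.640. Aldh1a2, at 0.0937 to 1.77 CPM, lies below the limit on level, so genes at its own level were not searched. The lack of a close gene therefore cannot be read as a trait of Aldh1a2. These likenesses were chosen for being smallest and were given no test.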

How the data were processed

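RNA from 9 libraries was read from a table of whole-number counts per Ensembl gene, which the authors deposited without normalization. The submitters' processing notes name the build GRCm38 and the tools featureCounts, STAR, Trimmomatic, bcl2fastq 2.17 and DESeq2. How strand and reads with several matches were treated is not given in the sources used here, so genes that overlap or share sequence may have lost or gained reads. Of 49315 identifiers, 49056 were named by GENCODE M21, and the 259 unnamed held 0.015% to 0.018% of a library's counts.

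The test was edgeR's (version 4.0.16, R 4.3.3) (filterByExpr with a minimum count of 10, TMM, estimateDisp, glmQLFit and glmQLFTest, two-sided), fitted to the 9 libraries together by group. The 18211 genes left were adjusted together by the Benjamini-Hochberg method, at a threshold of 0.05. It was checked on simulated data. Levels per kb divide CPM by merged exon length. Sequences are from RefSeq (GRCm38.p6).

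No 2 libraries agreed within sampling noise (chi-square per degree of freedom at least 6.73), so all 9 were counted. Titles give the groups the same replicate numbers. The deviations of same-numbered R26 hypoxia and R26 normoxia libraries correlated at 0.48, 0.53 and 0.855, all over 0.1. The reported fit is by group and pairs no libraries, so its p-values take no account of this. Pairing by replicate number entered only in the alternative fits with a block. For HIF1a-ko libraries the correlations with same-numbered R26 libraries were -0.667 to 0.587, so their shared numbers were not taken as pairs. The deeper library is replicate 3 in both R26 groups and replicate 1 in HIF1a-ko hypoxia, so these correlations and the block also carry depth class, and the number and the depth cannot be told apart. The block results given for R26 hypoxia against R26 normoxia come from a fit of those 2 groups.

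The genes, the wider list, the markers and the tests were chosen with earlier results of these data known. Named from the wider list were genes called with a log2 fold change of at least 1 in either direction, and all tested genes of uptake, retinal oxidation, breakdown, binding and receptors; Dgat1, the coregulators and the other genes known to respond to retinoic acid were named after their values were seen. Some genes of the wider list are not reported here, though the counts include them. Alternatives were another normalization, no filter, depth class, fewer libraries, DESeq2 1.42.0 and the block. Without HIF1a-ko cells at 20% oxygen, not analysed here, guide and oxygen could not be fitted as an interaction.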

Additional observations from a re-analysis of the deposited data

How the results depend on the processing

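Over 19 fits per comparison, the reported one included, no result changed to the opposite call. The counts that moved were mostly those of R26 hypoxia against R26 normoxia. There, the members called higher were 1 as reported and 2 with depth class as a term, within the 6 shallower libraries and with the replicate block in a fit of the 2 groups; those called lower were 0 as reported and 1 in these 3 fits and in a fit of only the 2 groups without the block. Genes of the wider list called higher were 5 as reported, 11 with depth class as a term, 8 within the 6 shallower libraries and 11 with the 2-group replicate block. Those called lower were 7 as reported, 3 without the filter on low counts, 11 with depth class as a term, 4 in the fit of only the 2 groups and 11 with the 2-group replicate block. In HIF1a-ko hypoxia against R26 hypoxia, the members called higher were 0 as reported and 1 (Crabp1) with depth class as a term. The cause was not tested. Leaving out 1 library at a time gave, in R26 hypoxia against R26 normoxia, 1 member higher in every fit and 0 to 1 lower, and 3 to 6 genes of the wider list higher and 2 to 6 lower. In HIF1a-ko hypoxia against R26 hypoxia it gave 0 members higher and 4 lower in every fit, and 8 to 9 and 9 to 11 genes of the wider list. In HIF1a-ko hypoxia against R26 normoxia it gave 0 members higher in every fit and 2 to 4 lower, and 4 to 6 and 6 to 8 genes of the wider list. The 2 was reached without R26 normoxia replicate 2, where Rarg and Aldh1a2 were lost. Genes called in R26 hypoxia against R26 normoxia over the whole table were 4591 as reported, 6959 with depth class as a term and 7259 with the 2-group replicate block. Members called were 1, 4 and 4 in R26 hypoxia against R26 normoxia, HIF1a-ko hypoxia against R26 hypoxia and HIF1a-ko hypoxia against R26 normoxia. In the same order, 3, 5 and 5 of the 8 genes had an unadjusted p under 0.05, in either direction and with the called genes included. DESeq2 gave the same member counts as edgeR. Crabp1, Crabp2, Rarb and Aldh1a2 rest on 2 to 132 reads per library, which limits what their fits can show. With the replicate block over all 9 libraries every count stayed within 1.5 times the reported one. Same-numbered HIF1a-ko and R26 libraries share only a number, and a 2-group block there moved the genes called over the whole table to 6240 (7548 as reported) in HIF1a-ko hypoxia against R26 normoxia. Beside the calls given above, the block of the R26 groups added Ncor1, among others, and ended none of the reported calls of these lists.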
